A study of Mus musculus with 6 samples.

Results

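Proneural and intermediate progenitor genes were followed in cortical cells of mouse embryos whose dams had received phenobarbital, a barbiturate that enhances currents through GABA-A receptors, or saline. The set holds 10 genes, Eomes, Neurog1, Neurog2, Insm1, Btg2, Gadd45g, Hes6, Neurod4, Mfng and Rcor2, of 20145 genes named on the array. Members were taken by function, and all 12 of their probes entered the comparison, 2 each for Eomes and Mfng and 1 for each of the others. Both groups were C57BL/6N embryos. Dams of the phenobarbital group were given 80 mg/kg by intraperitoneal injection, in paired doses 6 h apart on embryonic days 10 to 11, and control dams were given saline on that schedule. Cortex was collected on day 12 according to the protocol and at E12.5 according to the sample labels. The tissue was dissociated without sorting and plated on poly-L-ornithine and fibronectin, and RNA was taken 4 h later, so the cells named neural progenitors in the labels are all cortical cells that were plated. Each group holds 3 arrays, 1 per sample. The labels do not say whether the samples of a group are separate litters or dishes. The p-values therefore rest on the spread among these 6 samples, part or all of which could be technical.

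In the embryonic cortex, radial glia divide to give neurons either directly or through intermediate progenitors, which leave the ventricular surface and divide again to give neurons. Proneural factors of the basic helix-loop-helix (bHLH) class, Neurog1 and Neurog2 in the dorsal cortex, pair with E proteins, bind E-box sequences and turn on genes of neuronal commitment. Eomes (Tbr2) and Insm1 mark and promote intermediate progenitors. Btg2 and Gadd45g restrain division, Hes6 opposes the repressor Hes1, Mfng modifies Notch receptors, and Rcor2 is a corepressor of the CoREST complex.

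The stretches upstream of 3 members are shown because bHLH factors and Hes repressors act through short motifs in such DNA. Eomes is shown as a member with a lower probe, Neurog2 as the upstream factor whose level differed little, and Gadd45g as the member with 3 E-boxes and an N-box in this window, a choice made after the counts were seen. Each is the 250 bases before the RefSeq start on the plus strand of GRCm38.p6, with E-boxes (CANNTG) and N-boxes (CACNAG, a Hes site) in capitals. They lie at chr9:118477939-118478188, chr3:127632886-127633135 and chr13:51846425-51846674.
Eomes: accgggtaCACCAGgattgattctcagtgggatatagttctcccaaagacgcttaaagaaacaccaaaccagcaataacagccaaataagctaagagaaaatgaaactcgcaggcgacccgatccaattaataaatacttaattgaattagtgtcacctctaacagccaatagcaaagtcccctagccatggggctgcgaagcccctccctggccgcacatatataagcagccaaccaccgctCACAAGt
Neurog2: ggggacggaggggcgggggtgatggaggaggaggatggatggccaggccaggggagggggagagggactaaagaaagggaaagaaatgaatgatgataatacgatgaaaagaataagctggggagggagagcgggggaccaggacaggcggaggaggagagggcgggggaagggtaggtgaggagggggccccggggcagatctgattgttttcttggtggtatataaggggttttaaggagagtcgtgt
Gadd45g: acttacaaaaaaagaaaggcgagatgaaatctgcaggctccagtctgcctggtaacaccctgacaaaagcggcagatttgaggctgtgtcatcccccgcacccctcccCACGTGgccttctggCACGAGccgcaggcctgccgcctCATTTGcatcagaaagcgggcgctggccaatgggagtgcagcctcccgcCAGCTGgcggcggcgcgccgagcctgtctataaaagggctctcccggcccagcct
RefSeq promoters of GRCm38.p6 were held for 8 of the 10 members, in 10 entries, and both strands were searched. Hits of one motif may overlap those of another in part, but no 6 bases can match both. An E-box was found in 4 of the 10 entries, those of Gadd45g, Hes6 and Rcor2, against 66.2% of all 32851 promoter entries. Gadd45g had E-boxes 142, 104 and 55 bases before its start, and Rcor2 had 1, 30 bases before. The proneural motif CAGATG, itself an E-box, was found in none of the 10 member entries, against 14.4% of all entries. An N-box was found in 5 of the 10 entries, those of Eomes, Gadd45g, Hes6 and Neurod4, against 36.7% of all entries, and in Eomes it stood 242 and 7 bases before the start. The Neurod4 entries overlap and share a site, so by gene the count is 4 of 8. These are letter matches in 1 short window and not binding sites. Insm1 and Mfng had no entry.

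The 6 arrays were alike in how many spots stood well above background, 62.8% to 68.7%. The signal at the 75th percentile ranged from 1116 to 1291 in the control group and from 1803 to 1862 in the phenobarbital group, so every level here is given as log2 of the signal with that percentile at 0. Control replicate 1 and the 3 phenobarbital arrays shared slide 1, while control replicates 2 and 3 were on slides of their own. A fit with the slide as a block thus compares the phenobarbital arrays with control replicate 1 alone, so what passes or fails in it rests on 1 control. Without control replicate 1, no slide holds both groups, and treatment and slide cannot be told apart. Control replicate 2 stood apart from the rest, with a correlation across probes of 0.973 to 0.987 with the other arrays against 0.980 to 0.995 among those. The progenitor markers Pax6, Sox2, Nes and Fabp7 were above background on every array. The ventral factor Nkx2-1 was not above background on any array, and neither was the hindbrain proneural gene Atoh1.

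Among the members, Insm1 fell with phenobarbital to about 0.540 times its control level, and 1 of the 2 Eomes probes fell to 0.664 times. No member rose, and the other 10 probes did not pass the test. Of the 12 probes, 2 changed (16.7%), both downward, and of all 34673 probes tested 16.2% changed, 6.97% upward and 9.24% downward (limma, adjusted p below 0.05). The members' share of calls is thus near that of the array as a whole. At an unadjusted p below 0.05 there were 4 of 12 member probes (33.3%) and 35.2% of all probes. Groups did not overlap for 4 member probes (33.3%), all with lower phenobarbital values. Of all probes 44% did not overlap, and 30.6% of all probes lay that way and 13.4% the other way. Of the 12 differences 10 were negative (83.3%, against 65.7% of all probes). Neurod4 is among these 10 and among the 4 at an unadjusted p below 0.05. The filter kept it only through the control arrays. The members' median log2 difference was -0.25, and that of all probes was -0.15. The share of rises among all calls was 43.0%, but it was 60.0% after quantile normalization, 62.7% with scaling to the median, 66.8% with the percentile of only those probes that all 6 arrays detected, and 25.6% with normexp. The median of all probes was -0.05 after quantile normalization and -0.21 with normexp.

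**Figure D1:**
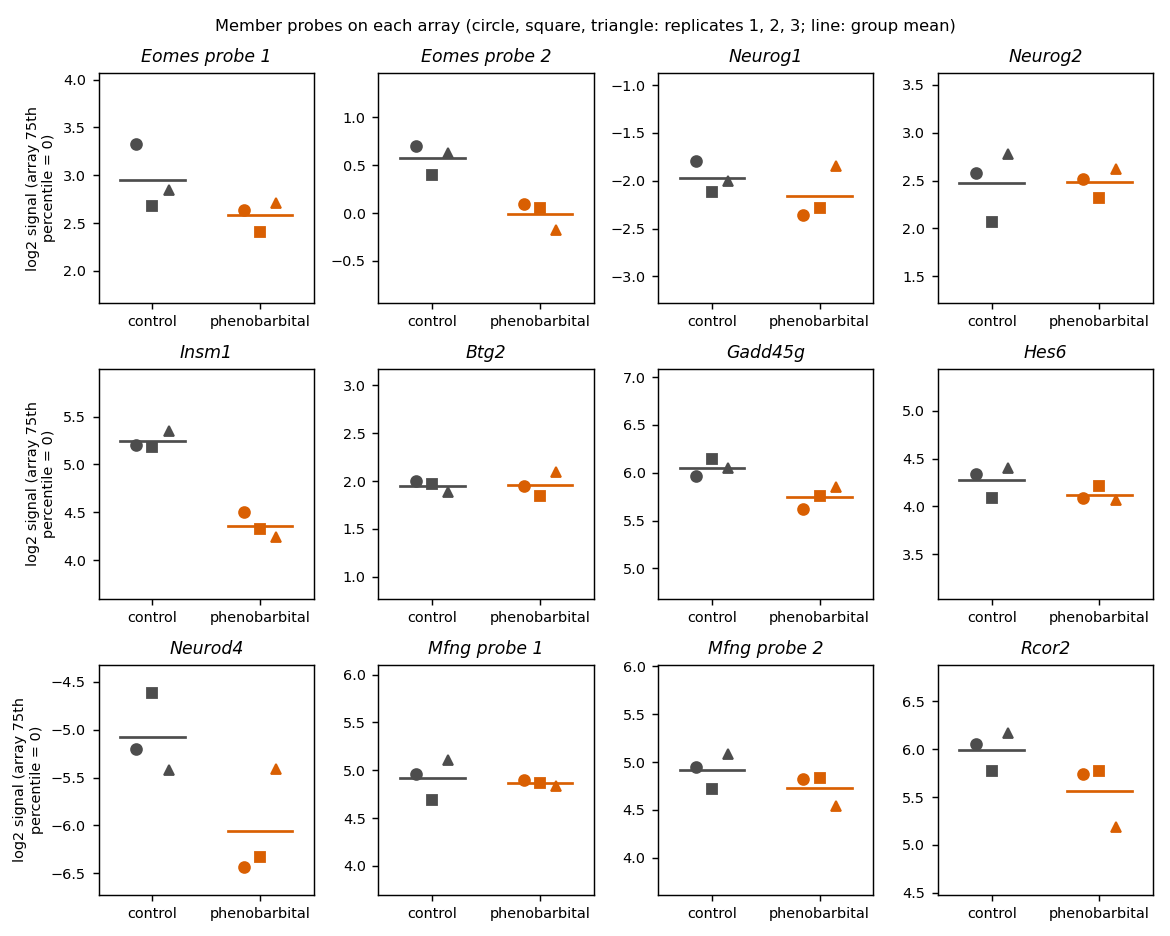
Level of each of the 12 member probes on each array, as log2 signal with the array's 75th percentile at 0; circles, squares and triangles are replicates 1, 2 and 3, lines are group means, and every panel spans the same log2 range. Insm1 spans 5.18 to 5.35 in the control group and 4.24 to 4.50 in the phenobarbital group, while Neurog2 and Btg2 overlap between the groups.

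Of the proneural factors, Neurog2, which specifies the glutamatergic fate of dorsal cortical neurons, had levels of 2.57, 2.07 and 2.77 in control replicates 1 to 3. With phenobarbital its levels were 2.52, 2.31 and 2.62. The phenobarbital values lay within the range of the control values, and control replicate 2 was the lowest of all 6. The log2 difference was 0.01 ± 0.20 (SE, n = 3 per group; limma, adjusted p = 0.977), and its 95% interval of -0.47 to 0.49 leaves room for a change of either sign. In folds that interval runs from 0.720 to 1.41.

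Neurog1, its close relative with an overlapping role, had levels of -1.79, -2.12 and -2.00 in the controls. The phenobarbital arrays had -2.36, -2.29 and -1.85. Phenobarbital replicate 3 lay among the controls and the other two lay below them. The difference of -0.19 ± 0.17 did not pass (adjusted p = 0.460), with a 95% interval of -0.61 to 0.22. It ranged from -0.095 without phenobarbital replicate 1 to -0.35 without phenobarbital replicate 3, and was -0.10 without control replicate 1. With array weights it was -0.44 and passed (adjusted p = 0.0250).

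Neurod4 (Math3), a bHLH factor that acts after the neurogenins, was the dimmest member. Its levels were -5.20, -4.61 and -5.42 in the controls and -6.44, -6.33 and -5.41 with phenobarbital. It was above background on all 3 control arrays and on 1 phenobarbital array, replicate 3, whose value lay just above the lowest control. The filter thus kept it only through the control group, where it was higher, so the sign of its difference is not read as a result. The difference was -0.98 ± 0.33 (adjusted p = 0.0896, unadjusted p = 0.0235) and did not pass. With normexp it was -0.64 and passed (adjusted p = 0.0201).

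Insm1, a zinc-finger factor that drives the formation of intermediate progenitors, had levels of 5.20, 5.18 and 5.35 in the controls. With phenobarbital the levels were 4.50, 4.32 and 4.24. Every phenobarbital array lay below every control array, with a gap of 0.68 between the nearest values, and the spread was small in both groups (SD 0.09 and 0.13). Insm1 fell by 0.89 ± 0.12 on the log2 scale (limma, adjusted p = 0.00847), a 1.85-fold drop, and the 95% interval of the ratio to control was 0.445 to 0.656. Of all probes 3.32% had a difference as low or lower. Within slide 1, against control replicate 1 alone, the difference was -0.85.

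The fall of Insm1 kept its sign under each of the 21 other settings, between -0.96 and -0.67, and passed in 19 of them. It did not pass with the replicate number as a block, or with the slide as a block, where control replicate 1 is the only control. Leaving out any 1 array gave adjusted p-values of 0.0111 to 0.0432.

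Eomes, the T-box factor that defines intermediate progenitors, was read by 2 probes of the same transcript, the first brighter than the second. Its first probe had 3.33, 2.68 and 2.84 in the controls and 2.63, 2.41 and 2.71 with phenobarbital. Phenobarbital replicate 3 lay just above control replicate 2, so the groups overlapped, and control replicate 1 was the highest. The difference of -0.36 ± 0.19 did not pass (adjusted p = 0.225).

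The second Eomes probe had 0.71, 0.40 and 0.63 in the controls and 0.10, 0.06 and -0.18 with phenobarbital. The groups were apart by 0.31. This probe fell by 0.59 ± 0.13 (limma, adjusted p = 0.0358), with a 95% interval of -0.91 to -0.27. The call ended when any array but control replicate 2 was left out (adjusted p = 0.0844 to 0.116), with scaling to the median (0.0931), with no filter on dim probes (0.0851), and with the slide as a block (0.123). The mean of both probes had a difference of -0.48 (adjusted p = 0.0653). Within slide 1, against control replicate 1 alone, the first probe's difference was -0.74 and the second's -0.72. Without control replicate 1, the highest control, the first probe had -0.18 and the second -0.53, and neither passed.

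Because both Eomes probes sit on each array, their log2 ratio depends on no scaling between arrays. It was 2.62, 2.27 and 2.21 in the controls and 2.54, 2.35 and 2.89 with phenobarbital. These ranges overlap, so the probes' unequal differences did not stand out from the spread between arrays.

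**Figure D2:**
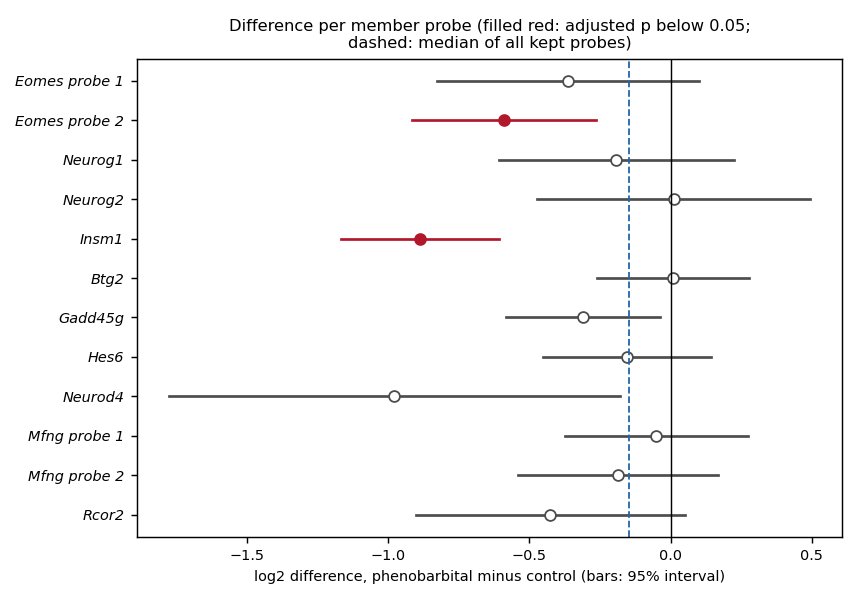
Log2 difference of each member probe, phenobarbital minus control, with its 95% interval from limma; filled red points passed at an adjusted p below 0.05, and the dashed line is the median of all kept probes, -0.15. Insm1 and the second Eomes probe are the 2 filled points, and 8 of the 12 intervals include 0.

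Btg2 (Tis21), an antiproliferative gene switched on in progenitors about to make neurons, had 2.00, 1.97 and 1.89 in the controls and 1.95, 1.85 and 2.09 with phenobarbital. Phenobarbital replicates held both the highest and the lowest value, so the groups overlapped. The difference was 0.01 ± 0.11 (adjusted p = 0.967), and the 95% interval of the ratio to control was 0.835 to 1.21.

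Gadd45g, a growth-arrest gene of newly committed neuronal precursors, had 5.97, 6.14 and 6.05 in the controls. It had 5.62, 5.75 and 5.86 with phenobarbital. All 3 phenobarbital values lay below the controls, by at least 0.11. The difference of -0.31 ± 0.11 had an unadjusted p of 0.0321 and did not pass (adjusted p = 0.108). After quantile normalization it was -0.07.

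Hes6, a Hes-related factor induced by neurogenins, had 4.34, 4.09 and 4.40 in the controls and 4.08, 4.22 and 4.07 with phenobarbital. Control replicate 2 lay within the phenobarbital range. The difference was -0.15 ± 0.12 (adjusted p = 0.410), equal to the median of all probes, with a 95% interval of -0.45 to 0.14.

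Mfng, a glycosyltransferase of committed precursors that alters how Notch receptors read their ligands, was read by 2 probes of nearly equal brightness. Its first probe had 4.96, 4.69 and 5.11 in the controls and 4.90, 4.87 and 4.83 with phenobarbital, a difference of -0.05 ± 0.14 (adjusted p = 0.820). The second had 4.95, 4.71 and 5.09 against 4.82, 4.84 and 4.54, a difference of -0.19 ± 0.15 (adjusted p = 0.402). On both probes control replicate 2 was the lowest control, below every phenobarbital array on the first and inside their range on the second. The log2 ratio of the 2 probes was -0.03 to 0.02 in the controls and 0.04 to 0.30 with phenobarbital, and phenobarbital replicate 3 held the highest ratio.

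Rcor2, a scaffold that joins the demethylase Kdm1a to its targets in neural progenitors, had 6.05, 5.77 and 6.17 in the controls and 5.75, 5.77 and 5.19 with phenobarbital. Control replicate 2 and phenobarbital replicate 2 both had 5.77, a gap of 0.00014, so that Rcor2 counts among the 4 probes without overlap by that margin alone. Phenobarbital replicate 3 was the lowest array. The difference of -0.43 ± 0.20 did not pass (adjusted p = 0.177) and was -0.24 without phenobarbital replicate 3.

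**Figure D3:**
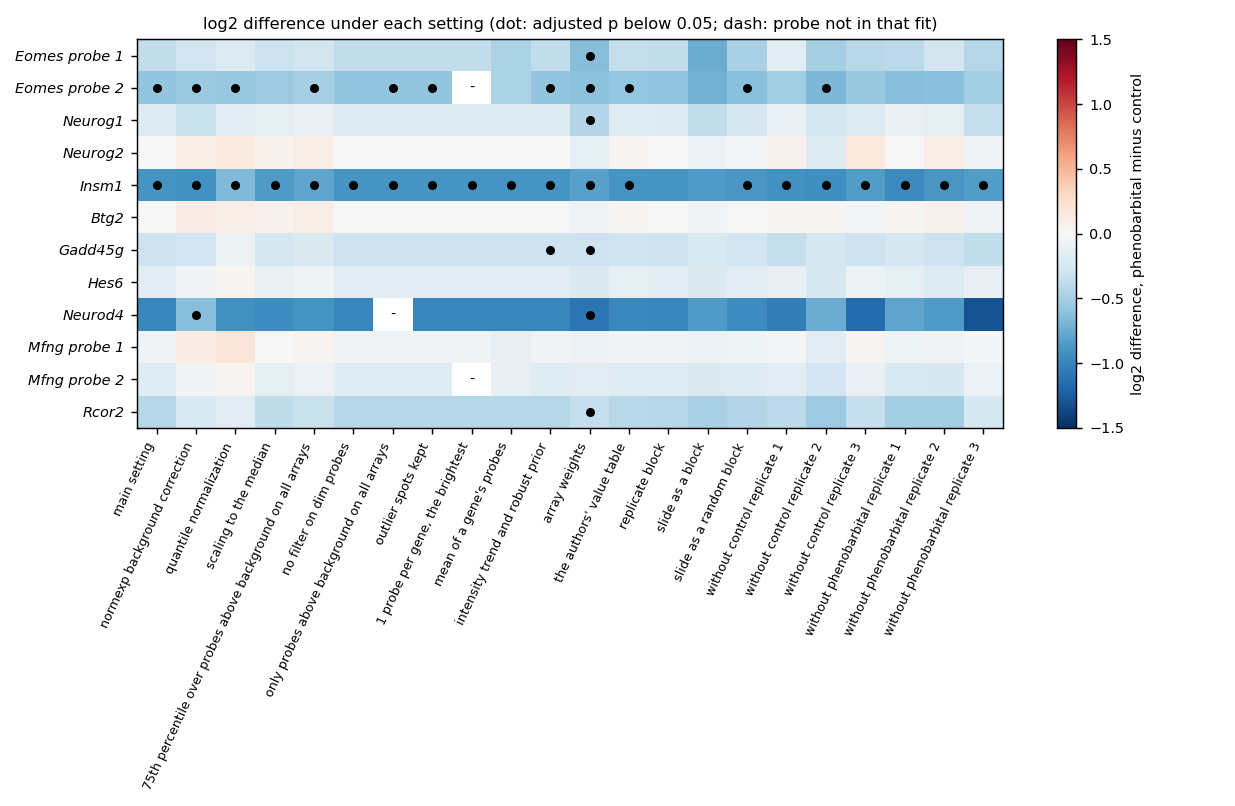
Colour gives the log2 difference, phenobarbital minus control, of each member probe (lines) under the main and the 21 other settings (columns); black dots mark an adjusted p below 0.05, and dashes mark probes not in that fit. Insm1 is blue in every column with 19 dots among the other settings, while Neurog2 and Btg2 stay pale.

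The members were also set against each other within each array, which needs no scaling between arrays. This was chosen after the values had been seen and is given without a test. Each gene was taken relative to the mean of the 9 members that were above background on every array. On that scale Insm1 had 1.72, 1.92 and 1.85 in the controls and 1.36, 1.21 and 1.11 with phenobarbital, a difference of -0.61 without overlap. Eomes, as the mean of its probes, had -1.46, -1.72 and -1.76 against -1.78, -1.88 and -1.87, a difference of -0.19 without overlap. Btg2 and Hes6 had differences of 0.29 and 0.13, also without overlap, and the rest overlapped. On the main scale 44% of all probes did not overlap, and no such share was computed for this scale. The 9 differences sum to 0 by construction, so a low value of Insm1 places other members higher, and no direction is read from them on this scale.

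The log2 ratio of Insm1 to Neurog2 was 2.63, 3.11 and 2.57 in the controls and 1.98, 2.01 and 1.63 with phenobarbital. Its groups did not overlap, nor did those of the ratio of Insm1 to Hes6 (0.86 to 1.09 against 0.11 to 0.42) or to Gadd45g (-0.96 to -0.70 against -1.61 to -1.12). The ratio of Insm1 to the first Eomes probe overlapped, since control replicate 1 had 1.88 and phenobarbital replicate 2 had 1.91. The ratio of the first Eomes probe to Neurog2 overlapped as well (0.07 to 0.75 against 0.09 to 0.11). The other ratios all use the same Insm1 values. No share without overlap was computed for ratios over the array, and for single probes it was 44%. All of these ratios were chosen after the values were seen and were not tested. They do not show which gene of a pair changed.

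Genes that act around the members were read from lists set by function. The 3 E proteins that pair with proneural factors, Tcf3, Tcf4 and Tcf12, had no probe past the threshold among 6 (limma; 0 also at an unadjusted p below 0.05), and the brightest probes of Tcf4 and Tcf3 had differences of -0.13 ± 0.18 and 0.09 ± 0.11. Of 8 other proneural and neuronal bHLH genes in the fit, with 10 probes, Nhlh1 alone passed. Its brighter probe rose by 0.78 ± 0.12 (adjusted p = 0.0122), whereas its other probe had -0.46 ± 0.12 (adjusted p = 0.0522), so the 2 probes of this early neuronal factor disagreed in sign. The list's median was -0.35.

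The list of the Neurog and Eomes cascade had 13 genes in the fit and 18 probes, of which 1 rose and 2 fell, with a median of -0.35 against -0.15 for all probes. Tbr1, the factor of early deep-layer neurons that follows Eomes, fell by 0.66 ± 0.14 (adjusted p = 0.0288), while its other probe, at -0.34, did not pass. Cdkn1c, an inhibitor of the cell cycle, fell by 0.48 ± 0.12 (adjusted p = 0.0466). Sstr2, a somatostatin receptor of intermediate progenitors, rose by 1.29 ± 0.32 (adjusted p = 0.0418). After quantile normalization Tbr1, Cdkn1c and Sstr2 had -0.37, -0.25 and 1.30, and none of them passed. Both probes of Rnd2, a small GTPase gene that Neurog2 activates, had positive differences, 1.51 ± 0.51 and 1.46 ± 0.55, that did not pass (adjusted p = 0.0896 and 0.116); Rnd2 was picked after its values were seen.

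Among 11 antagonists of proneural factors, with 13 probes, 2 rose, none fell and the median was 0.06. Rest, the repressor of neuronal genes, rose by 1.08 ± 0.19 on its brighter probe (adjusted p = 0.0197) and had 0.11 ± 0.10 on the other, short of the threshold. Id3, which sequesters E proteins, rose by 0.94 ± 0.19 (adjusted p = 0.0261). Id2 had a negative difference just short of the threshold (limma, adjusted p = 0.0501). It passed as a fall in the fit of the brightest probe of each gene (0.0475). It also passed with only probes above background on all arrays (0.0447) and with an intensity trend (0.0282), but not after quantile normalization (0.0735). The Notch effectors Hes1 and Hes5 had 0.02 ± 0.14 and 0.58 ± 0.18 and did not pass (adjusted p = 0.933 and 0.0708). Hes5 passed after quantile normalization (0.77, adjusted p = 0.0213), and also with normexp, with the percentile of probes detected on all arrays, with an intensity trend and with array weights (0.0101 to 0.0428).

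None of the 14 probes for 9 CoREST partners of Rcor2 and Insm1 passed (limma; 2 at an unadjusted p below 0.05), and the brightest, for Hdac1 and Kdm1a, had -0.14 ± 0.17 and -0.34 ± 0.14. Of 9 probes for fringe and Notch genes, 1 rose and 2 fell. The brighter Notch1 probe fell by 1.19 ± 0.16 while its dim probe rose by 1.56 ± 0.18. The dim probe was not above background on every array. With normexp it had 0.31 and did not pass (adjusted p = 0.0505), so the size of its rise depends on the background correction. Jag1, a Notch ligand, fell by 0.68 ± 0.13. Lfng, the sister fringe of Mfng, had 0.38 ± 0.13 and did not pass. In the Btg and Gadd45 families Gadd45a fell by 0.93 ± 0.12 (adjusted p = 0.00768) and Btg3 by 0.64 ± 0.10 (adjusted p = 0.0159), and the other 7 of 9 probes did not pass. Of 4 probes for relatives of Hes6, Eomes and Insm1, Heyl fell by 0.71 ± 0.15 (adjusted p = 0.0271), and the 2 probes of Insm2 had -0.19 and -0.78 and did not pass. Each of these 12 calls kept its sign under the other settings computed for it. Both Notch1 probes and Gadd45a passed whichever array was left out, and the other 9 calls each lost the threshold without at least 1 array (adjusted p up to 0.121). With the slide as a block, Sstr2 and the dim Notch1 probe still passed and the other 10 did not. These counts lie beside the 6.97% of all probes that rose and the 9.24% that fell, and no list was tested as a whole.

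**Figure D4:**
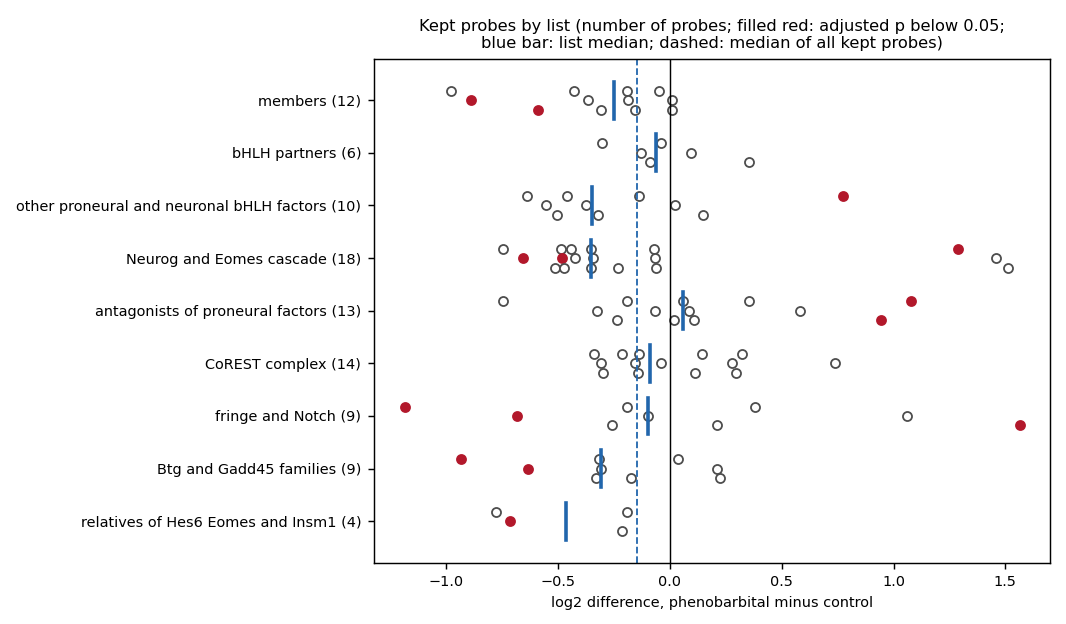
Log2 difference, phenobarbital minus control, of every kept probe in the member set and in 8 related lists, with the number of probes in brackets; filled red points passed at an adjusted p below 0.05, blue bars are list medians, and the dashed line is the median of all kept probes. The member median lies at -0.25, and lists differ in both directions, from -0.46 for the relatives of Hes6, Eomes and Insm1 to 0.06 for the antagonists.

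Markers of the cells in the dish moved as well. Of 9 young neuron genes (16 probes) 5 fell and none rose, with a median of -0.34, and the summed level of their brightest probes was 245 to 283 times the array's 75th percentile in the controls and 157 to 192 times with phenobarbital. That sum was 335 to 360 against 269 to 301 for 10 radial glia genes, of which 1 rose and 1 fell. For the members it was 219 to 252 against 176 to 190. A sum of this kind weighs the brightest probes most, here Gadd45g and Rcor2, neither of which passed. It has no counterpart over all probes and is not read as a fall of the set. Of 6 choroid plexus genes in the fit 5 rose and none fell, and the sum was 1.88 to 4.08 against 11.7 to 22.8. Kl of that list was not kept. Kcne2, 1 of those 5 rises, was below background on every control array. The filter kept it only through the phenobarbital arrays, where it was higher, and it did not pass with normexp (limma, adjusted p = 0.0914). Of 7 red blood cell genes 5 fell (936 to 1369 against 602 to 655), and of 7 mural and meningeal genes 6 fell (47.0 to 53.4 against 26.6 to 32.5). Of 6 endothelial genes 3 fell (67.8 to 79.3 against 40.5 to 46.9). Of 6 microglial genes 3 fell and 1 rose (7.70 to 9.94 against 8.21 to 10.6), and of 5 Cajal-Retzius genes 2 rose (2.30 to 3.41 against 3.04 to 4.37). Reln, 1 of those 2 rises, was not above background on every array and did not pass with normexp (limma, adjusted p = 0.128). None of the 5 ventral telencephalon genes in the fit passed, and the other 3 (Dlx1, Gsx2 and Nkx2-1) were not kept (limma; 1 probe at an unadjusted p below 0.05), with sums of 6.67 to 10.3 against 4.35 to 6.25. The falls lie beside the 9.24% of all probes that fell, and the rises beside the 6.97% that rose. Those are shares of probes, whereas the marker counts are of genes with any probe past the threshold. With the slide as a block, every one of these marker calls was lost in limma's test except 2 of the 5 choroid plexus rises and 2 of the 5 red blood cell falls. Without control replicate 1, the calls that stayed were 1 of the 5 choroid plexus rises, 2 of the 6 mural and meningeal falls and 1 of the 2 Cajal-Retzius rises. After quantile normalization all 5 choroid plexus rises stayed, as did 2 of the 5 young neuron falls, 3 of the 6 mural and meningeal falls and 1 of the 5 red blood cell falls, while no endothelial or microglial fall did. The part of these markers in the fall of Insm1 and of the second Eomes probe was not tested. In RNA of mixed cells, fewer cells of a type and less RNA per cell cannot be told apart.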

How the data were processed

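RNA from 6 samples, 3 per group, was measured on 1-colour Agilent arrays, with Cy3-labelled cRNA made from 0.2 µg of RNA per the labels. The deposited scanner files hold linear spot intensity after background subtraction and spatial detrending, from Agilent Feature Extraction 10.7.3.1 per the file headers (10.7 in the submitters' processing notes), whose array annotation is of build mm9. The authors' value table holds log2 values, centred on an unknown constant per probe, with medians of 0.082, 0.10 and 0.091 in the controls and -0.017, -0.086 and -0.082 with phenobarbital. Its differences between arrays matched the scanner values to within 2.04e-06 for 99% of values, after 1 factor per array, which settles scale and direction. The software's calls of spots well above background and of outliers are flags of the deposited files.

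Processed signals were put on a log2 scale and the 75th percentile of the array's 59305 non-control spots was subtracted, outlier spots (98 to 198 per array) being left out. Of 55681 probes, 26582 carried an accession of the RefSeq table (GRCm38.p6, used for names). A probe was kept if all arrays of either group, or of both, had it above background and each group had at least 2 values. The 34673 kept probes were fitted by limma 3.58.1 (lmFit, eBayes; R 4.3.3), with Benjamini-Hochberg adjustment over all of them and a threshold of 0.05, two-sided. No spot was saturated, and at most 1 signal was equal between any 2 arrays. Members and lists were chosen with earlier results of these data known. All members are named, and of each related list up to 4 genes past the threshold or the 2 with the brightest probe. Atoh1, Rnd2, Hes1, Hes5, Id2, Lfng and Insm2 were named outside that rule, with their values known. On simulated data the fit recovered 64 of 100 probes with a log2 change of 1 and 94 of 100 with a change of 2, with 10 false calls. Those were the only changed probes among 34673, all raised, with independent noise and no slide effect. In the data 16.2% of probes were called. The adjustment is stricter when fewer probes change, so these recoveries are not those of the real fit. Every member difference was smaller than 1 in size, and changes that small were not simulated. The other settings changed the background correction, scaling, filter, outliers, probe choice, variance prior, array weights and value source, took the replicate number or slide as a block, and dropped each array in turn. Normexp was run on median spot signals. The number of arrays limits the precision.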

Additional observations from a re-analysis of the deposited data

How the results depend on the processing

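Across the 21 other settings, 213 of the single-probe differences kept their direction and their side of the threshold, 12 lost the call, 7 gained it and 17 changed sign. The count of changed probes on the whole array was 5618, and 9201 with normexp, 3640 with scaling to the median, 3693 with the percentile over probes above background on all arrays, 1929 with no filter on dim probes, 13899 with array weights, 577 with the replicate block, 1094 with the slide as a block, and 1358 to 5975 when 1 array was left out. Of the 12 member probes, 2 passed in the main setting. The count was 1 with scaling to the median, with no filter, with the brightest probe of each gene and with the mean of a gene's probes, 7 with array weights, 0 with the slide as a block (limma; 3 at an unadjusted p below 0.05), and 1 to 2 without 1 array. With the replicate block 0 member probes passed (3 unadjusted), and Insm1 had -0.89 with an adjusted p of 0.0668. The labels do not say whether a shared replicate number pairs a control with a phenobarbital sample. Same-numbered deviations from the group means correlated by 0.06, -0.16 and -0.32. With 3 arrays per group on unlike slides, these values cannot decide whether the samples were paired. Among the members, sign changes were confined to 5 probes that did not pass in the main setting. Neurog2 had -0.13 with array weights, -0.091 with the slide as a block, -0.022 with it as a random block and -0.19 to 0.16 without 1 array. Btg2 had -0.054, -0.042, -0.0082 and -0.058 to 0.066 in the same order. The first Mfng probe had 0.11 with normexp, 0.18 after quantile normalization, 0.044 with the percentile over probes above background and -0.17 to 0.046 without 1 array. After quantile normalization Hes6 had 0.031 and the second Mfng probe 0.036. The cause of these changes was not tested. Neurod4 lies near background, which limits its value.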

Other observations

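Before scaling between arrays the processed signals of the members were ordered differently. Insm1 had signals of 47471, 40494 and 48893 on the control arrays and 41874, 37192 and 34169 on the phenobarbital arrays, which overlap. Gadd45g had 80844, 78864 and 79434 against 91209, 100493 and 104404, and Btg2 had 5181, 4370 and 4449 against 7142, 6692 and 7699, so both were higher on every phenobarbital array before the 75th percentile was removed. The order of Insm1 relative to Btg2, Gadd45g or Hes6 within an array is the same on both scales.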
